A study of Mus musculus with 2 samples.

Results

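The genes Tal1, Lyl1, Tcf3, Lmo2 and Ldb1 code for partners of Gata1 in the Tal1 complex, a protein complex of red cell precursors. Their regulatory neighbourhoods were described from DNase-seq peaks, which mark DNA that is open to cutting by the enzyme DNase I. A window was taken around each of the 5 genes, from 50 kb before the gene body to 50 kb after it, and every peak with its summit inside was kept unmerged. The windows held 507 of the 400000 deposited peaks, 258 from the G1E-ER4 lists and 249 from the G1E lists.

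The first state was G1E-ER4, described in the labels as erythroid cells in which Gata1 is restored, induced to differentiate with 10 nM beta-estradiol for 24 h. It was set against G1E, labelled a Gata1- erythroid progenitor, which received no treatment. Both are male mouse lines of strain 129 that trace back to embryonic stem cells, so neither is a normal red cell precursor from an animal. Each state was 1 sample with 2 deposited peak lists, and nothing in the labels says whether the 2 lists came from separate cultures. The spread between lists may therefore be technical. The restored gene, the hormone, the cell line and the sample all differ between the states, and their parts cannot be told apart here.

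Tal1 is a basic helix-loop-helix protein that pairs with an E protein, most often a product of Tcf3, and binds the E-box. Lmo2 bridges this pair to Gata1 and to Ldb1, and Ldb1 can join to itself and so bring distant enhancers to promoters, as at the beta-globin locus. Lyl1 is a close relative of Tal1 that can take its place in the complex in early blood cells. The complex is known for binding a composite site, a partial E-box followed by a GATA motif. Tal1 itself is regulated by several distant elements, among them a blood stem cell enhancer about 19 kb downstream of its first start and an erythroid enhancer about 40 kb downstream.

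The sequences that carry the description are given first, on the mm9 build. The first 4 are 200 bp around the summit of distal sites that hold the composite motif, CTG followed by GATAA after 7 to 9 bases. Other distal sites of the windows also hold it and are not shown. Among them are the sites 8.0 kb upstream of Tal1 and 31.1 kb upstream of Lmo2. Capitals mark the CTG, the GATA motif (AGATAA or TGATAA) and any E-box (CAGCTG or CAGATG). Letters are given on the strand on which the composite motif reads forward.
Tal1 site 39.6 kb downstream, chr4:114768519-114768718, plus strand, between genes: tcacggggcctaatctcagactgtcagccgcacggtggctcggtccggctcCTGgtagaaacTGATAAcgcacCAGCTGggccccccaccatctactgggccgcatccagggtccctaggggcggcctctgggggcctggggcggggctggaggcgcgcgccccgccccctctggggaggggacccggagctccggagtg
Tal1 site 18.6 kb downstream, chr4:114747476-114747675, minus strand, between genes: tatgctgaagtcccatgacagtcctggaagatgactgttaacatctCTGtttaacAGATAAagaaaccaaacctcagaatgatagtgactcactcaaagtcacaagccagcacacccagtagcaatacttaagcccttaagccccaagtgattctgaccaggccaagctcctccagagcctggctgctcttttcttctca
Lyl1 site 29.6 kb downstream, chr8:87254803-87255002, minus strand, in an intron of Nfix: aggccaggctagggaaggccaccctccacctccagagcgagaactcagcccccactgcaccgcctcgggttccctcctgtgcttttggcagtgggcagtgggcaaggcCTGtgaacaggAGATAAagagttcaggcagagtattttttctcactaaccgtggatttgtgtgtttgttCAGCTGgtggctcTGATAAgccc
Tcf3 site 20.1 kb upstream, chr10:79916412-79916611, minus strand, between genes: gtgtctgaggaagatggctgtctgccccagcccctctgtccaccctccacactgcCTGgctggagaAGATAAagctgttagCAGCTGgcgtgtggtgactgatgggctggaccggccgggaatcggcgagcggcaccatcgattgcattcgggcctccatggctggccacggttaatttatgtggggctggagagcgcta

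The Tal1 site at 39.6 kb lies where the known erythroid enhancer is, and has 9 bases between CTG and GATAA. The Tal1 site at 18.6 kb lies by the known stem cell enhancer, with a spacing of 7. The Lyl1 site holds 2 composite motifs, with spacings of 9 and 8 bases, and the CTG of the second is the end of its E-box. The Tcf3 site was found in the G1E-ER4 lists alone and has a spacing of 9. The next pair shows summits of sites found in 1 state, each with a single GATA motif in capitals and no composite motif. The pair was picked for the motif. Of the other sites limited to 1 state by the rule given below, only the Tcf3 site above held a GATA motif at its summit.
Ldb1 site 5.1 kb upstream, G1E-ER4, chr19:46124695-46124894, plus strand, in an intron of Pprc1: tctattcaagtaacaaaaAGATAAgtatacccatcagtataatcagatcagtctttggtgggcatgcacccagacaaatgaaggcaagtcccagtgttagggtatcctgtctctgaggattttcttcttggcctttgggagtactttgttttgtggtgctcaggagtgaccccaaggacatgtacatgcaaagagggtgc
Lmo2 site 65.3 kb downstream, G1E, chr2:103863371-103863570, minus strand, in an intron of 4931422A03Rik: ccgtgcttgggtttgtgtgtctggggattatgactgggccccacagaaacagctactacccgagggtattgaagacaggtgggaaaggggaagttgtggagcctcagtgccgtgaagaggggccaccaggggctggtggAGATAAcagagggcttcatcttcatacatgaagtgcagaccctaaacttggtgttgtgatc

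The last 3 sequences are the 150 bases before a transcription start, shown because all 4 lists had a peak at that start and the bases hold a motif that was searched. They were picked for the motif, and the other starts with a peak in all 4 lists are not shown. Capitals mark the ETS motif CCGGAA at Lyl1, 2 GATA motifs at the first Lmo2 start (TTATCA is TGATAA on the other strand), and an E-box at the Lmo2 start 11.5 kb downstream.
Lyl1 first start, chr8:87225206-87225355, plus strand: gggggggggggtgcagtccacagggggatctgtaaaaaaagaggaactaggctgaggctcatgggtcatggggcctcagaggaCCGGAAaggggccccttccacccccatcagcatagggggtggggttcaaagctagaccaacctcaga
Lmo2 first start, chr2:103797993-103798142, plus strand: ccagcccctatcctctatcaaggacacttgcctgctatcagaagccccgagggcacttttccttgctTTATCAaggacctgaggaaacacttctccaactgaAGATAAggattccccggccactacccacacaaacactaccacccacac
Lmo2 start at 11.5 kb, chr2:103809535-103809684, plus strand: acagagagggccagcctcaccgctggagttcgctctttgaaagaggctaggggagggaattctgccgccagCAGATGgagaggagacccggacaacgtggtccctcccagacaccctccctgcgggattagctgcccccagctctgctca

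These letters are descriptions of the reference genome, not evidence of binding. Among 22232 protein-coding promoters read over the same 150 bases on both strands, 8.8% held a GATA motif, 14.0% an E-box, 11.1% the ETS motif and 0.864% the composite motif.

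Each list held 100000 peaks. Each peak is described by its percentile, the rank of the authors' signal within the list, with 100 for the highest. It says how a site ranks among the other sites of that list and is not an amount of DNA cutting. Read depth is unknown. G1E-ER4 list 1 stood apart: 53.0% of its highest-ranking 10% of peaks lay within 1000 bp of a protein-coding start, against 77.9% in G1E-ER4 list 2 and 71.6 and 69.9% in the G1E lists. Median peak widths were 579 and 836 bp in the G1E-ER4 lists, against 520 and 646 bp in the G1E lists. The erythroid marker genes Klf1, Epor, Slc4a1, Tfrc, Ank1, Nfe2 and Zfpm1 each had a peak reaching within 1000 bp of a start in every list. Of 22232 protein-coding genes, 51.5% had one in all 4 lists. When the summit itself had to lie within 1000 bp, Klf1 had a peak in 2 lists and Zfpm1 in 3. Of 21 marker genes of other tissues, 6 had a peak reaching a promoter in every list and 6 in none. An open promoter is thus not by itself a mark of cell type in these lists.

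All 5 genes had an open promoter in both states. The percentile of the best peak within 1000 bp of an own start was above 90 in every list for each of them. Over all protein-coding genes, 45.7% of 22232 had such a peak in all 4 lists. In G1E-ER4 cells the mean over the 2 lists was 98.2 for Tcf3, 97.3 for Ldb1, 96.2 for Lyl1, 96.1 for Tal1 and 95 for Lmo2. In G1E cells it was 97.6 for Ldb1, 97.0 for Tcf3, 94.3 for Lyl1, 93.5 for Tal1 and 91.5 for Lmo2. In G1E-ER4 cells the values of neighbours in this order overlapped between lists, except those of Ldb1 and Lyl1. In G1E cells they overlapped except those of Tal1 and Lmo2.

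**Figure D1:**
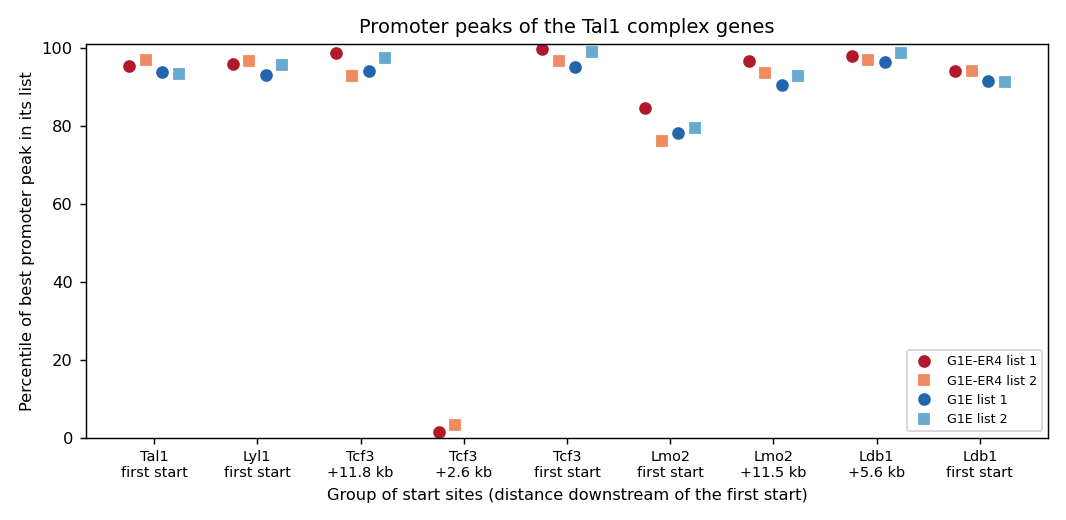
Percentile of the best promoter peak (y axis, 0 to 100) at each of the 9 groups of start sites of the 5 genes (x axis), 1 point per peak list, with the G1E-ER4 lists left of the G1E lists. Points lie above 90 at 7 of the 9 groups, between 76.0 and 84.7 at the first Lmo2 start, and at 1.51 and 3.19 at a Tcf3 start where the G1E lists have no summit.

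The Tal1 gene (ENSMUSG00000028717.6) runs from 114729031 to 114744360 on the plus strand of chromosome 4. Its promoter peak stood at percentiles 95.3 and 96.9 in the G1E-ER4 lists, against 93.8 and 93.3 in the G1E lists. Both G1E-ER4 values lay above both G1E values, by 2.59 points on average (p = 0.333, exact permutation test over the 4 lists, two-sided). With 2 lists against 2 no difference can reach a p below 0.333.

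Around Tal1, the site at 39.6 kb (chr4:114765833-114770524) had the highest mean percentile of the distal sites of the window in both states. It stood at 89.5 and 98.7 in the G1E-ER4 lists and at 96.6 and 97.3 in the G1E lists. The states overlapped there, with the lowest and the highest value both from G1E-ER4 cells. The element by 19 kb had 2 summits. The peaks covering the summit at 19.3 kb stood at 72.4 and 77.3 in the G1E-ER4 lists, against 83.4 and 86.3 in the G1E lists. Both G1E-ER4 values were the lower ones at this summit. At the summit at 18.6 kb, whose sequence is printed, the covering peaks stood at 72.4 and 77.3 in the G1E-ER4 lists, against 74.2 and 86.3 in the G1E lists, and the states overlapped. A separate summit at 17.1 kb was in G1E-ER4 list 1 alone, at 3.29. Beside the erythroid enhancer, a summit at 38.7 kb was in G1E list 1 alone, at 60.6, and one at 41.9 kb in G1E-ER4 list 2 alone, at 16.1.

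Other high Tal1 sites were of mixed order. The site at 29.3 kb downstream had 90.9 and 87.1 in the G1E-ER4 lists, against 83.6 and 89.2 in the G1E lists. The site at 45.4 kb (chr4:114774063-114775048) had 89.1 and 82.4 in the G1E-ER4 lists, against 63.1 and 83.3 in the G1E lists. At the site 8.0 kb upstream, covering peaks stood at 81.8 and 79.0 in the G1E-ER4 lists and at 83.5 and 88.5 in the G1E lists. The site upstream ranked higher in both G1E lists, while the other 2 overlapped between the states.

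The Tal1 window held 20 and 19 peaks in the G1E-ER4 lists, against 24 and 19 in the G1E lists. The promoter within the window that belongs to Pdzk1ip1, a neighbour that lies downstream of Tal1, had a peak in every list. No peak of the Tal1 window was limited to 1 state, 0 of 39 for G1E-ER4 and 0 of 43 for G1E. A peak limited to 1 state is present in both lists of that state by overlap and in neither list of the other. Over all peaks the shares so limited were 6.54% for G1E-ER4 and 8.82% for G1E.

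Lyl1 (ENSMUSG00000034041.4, chr8:87225356-87228614, plus strand) has a single annotated start. Its promoter peak stood at 95.8 and 96.6 in the G1E-ER4 lists, against 93.1 and 95.5 in the G1E lists. Both G1E-ER4 values were again above both G1E values, by 1.90 points (p = 0.333, exact permutation test, two-sided). The summit lay 0.24 kb inside the gene, and the 200 bp around it held 2 GATA motifs and 1 composite motif.

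The Lyl1 window is crowded with open DNA: peaks covered 44.7 and 49.7% of its bases in the G1E-ER4 lists, against 40 and 47.1% in the G1E lists. Over the genome the same shares were 3.42 and 4.24% for G1E-ER4 and 2.88 and 3.75% for G1E. The site with 2 composite motifs, 29.6 kb downstream inside Nfix (chr8:87253315-87256454), stood at 93.6 and 91.0 in the G1E-ER4 lists and at 94.4 and 94.9 in the G1E lists. It ranked lower in both G1E-ER4 lists, and within the highest 10% of peaks in every list. The site 36.3 kb downstream, also in Nfix, had 93.0 and 90.2 in the G1E-ER4 lists, against 87.9 and 88.4 in the G1E lists.

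Upstream of Lyl1, the site at 37.4 kb stood at 98.4 and 95.2 in the G1E-ER4 lists and at 93.4 and 97.4 in the G1E lists. It lies 1017 bp from the start of the lincRNA Gm2529. The site 44.5 kb upstream showed how far the 2 G1E-ER4 lists could part: 57.7 and 90.9, against 92.2 and 96.2 in the G1E lists. The one low value was that of G1E-ER4 list 1, the list that stood apart, and its part in the result was not tested.

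Tcf3 (ENSMUSG00000020167.8) lies on the minus strand at chr10:79872259-79896392 and has 9 annotated starts in 3 groups. At the first group the peak stood at 99.8 and 96.6 in the G1E-ER4 lists and at 95.1 and 98.8 in the G1E lists, a difference of 1.25 points (p = 0.667, exact permutation test, two-sided). At the start 11.8 kb downstream it stood at 98.8 and 92.7 in the G1E-ER4 lists and at 93.9 and 97.3 in the G1E lists. The states overlapped at both groups. The starts 2.6 kb downstream had a summit in the G1E-ER4 lists alone, at the very low percentiles of 1.51 and 3.19.

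Distal sites of Tcf3 included several that ranked higher in both G1E-ER4 lists. The site 41.9 kb upstream had 98.7 and 98.5 in the G1E-ER4 lists, against 96.6 and 95.7 in the G1E lists. It lies 848 bp from the start of a U6 small nuclear RNA gene. At 12.8 kb upstream the values were 97.4 and 88.5 in the G1E-ER4 lists, against 88.3 and 79.5 in the G1E lists. The site 57.3 kb downstream had 98.6 and 85.6 in the G1E-ER4 lists, against 87.1 and 81.1 in the G1E lists, and there the states overlapped. At 15.1 kb upstream the values were 74.8 and 75.5 in the G1E-ER4 lists, against 55.9 and 4.95 in the G1E lists.

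Tcf3 sites of the other order were also present. The intronic site 9.9 kb downstream overlapped between the states, with 91.7 and 88.4 in the G1E-ER4 lists, against 88.8 and 92.6 in the G1E lists. At 9.49 kb upstream the values were 52.7 and 68.3 in the G1E-ER4 lists, against 70.1 and 73.1 in the G1E lists. The window was the most densely covered of the 5 in G1E-ER4 list 1, with 52.4%, and held 43 and 42 peaks in the G1E-ER4 lists, against 48 and 34 in the G1E lists.

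Lmo2 (ENSMUSG00000032698.8, chr2:103798143-103822035, plus strand) has 2 groups of starts. At the group 11.5 kb downstream the peak stood at 96.6 and 93.4 in the G1E-ER4 lists, against 90.4 and 92.7 in the G1E lists. Both G1E-ER4 values were above both G1E values, by 3.48 points (p = 0.333, exact permutation test, two-sided). At the first start the values were lower and overlapped, with 84.7 and 76.0 in the G1E-ER4 lists, against 78.2 and 79.4 in the G1E lists. The downstream start thus ranked above the first start in every list.

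The Lmo2 window was the least covered of the 5 in every list. Peaks lay over 10.6 and 22.1% of its bases in the G1E-ER4 lists, against 10.1 and 17.9% in the G1E lists. This was still above the genome shares of 3.42 and 4.24% for G1E-ER4 and 2.88 and 3.75% for G1E. It held 11 and 24 peaks in the G1E-ER4 lists, against 17 and 15 in the G1E lists, so the 2 lists of G1E-ER4 cells differed by more than the states did. The site 24.4 kb downstream, the only distal Lmo2 site with a summit in all 4 lists, stood at 75.3 and 88.7 in the G1E-ER4 lists and at 83.1 and 85.8 in the G1E lists. At 25.7 kb upstream the covering peaks had 78.1 and 80.5 in the G1E-ER4 lists, against 32.0 and 72.1 in the G1E lists. The sites 31.1 kb upstream and 45.0 kb downstream had no peak in G1E-ER4 list 1. They stood at 67 and 76.6 in G1E-ER4 list 2, while the G1E lists had 78.4 and 82.9 at the upstream one and 75.6 and 72.4 at the downstream one.

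Ldb1 (ENSMUSG00000025223.8, chr19:46107083-46119704, minus strand) has 2 groups of starts as well. At the group 5.6 kb downstream the peak stood at 97.8 and 96.8 in the G1E-ER4 lists and at 96.5 and 98.7 in the G1E lists. The states overlapped, with a difference of -0.32 points (p = 1.0, exact permutation test, two-sided). At the first start the values were 94.1 and 94.0 in the G1E-ER4 lists, against 91.5 and 91.1 in the G1E lists. There both G1E-ER4 values were higher, by 2.73 points.

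Inside Ldb1, the intronic site 3.05 kb downstream of the first start had 82.5 and 77.3 in the G1E-ER4 lists, against 91.0 and 85.0 in the G1E lists. The site 15.9 kb upstream, in an intron of Pprc1, had 76.6 and 68.6 in the G1E-ER4 lists, against 83.1 and 84.7 in the G1E lists. Both of these ranked lower in both G1E-ER4 lists. The site 30.5 kb downstream had 97.5 and 84.4 in the G1E-ER4 lists, against 88.6 and 88.0 in the G1E lists, and the site 41.4 kb upstream had 68.6 and 78.3 in the G1E-ER4 lists, against 63.2 and 80.8 in the G1E lists.

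**Figure D2:**
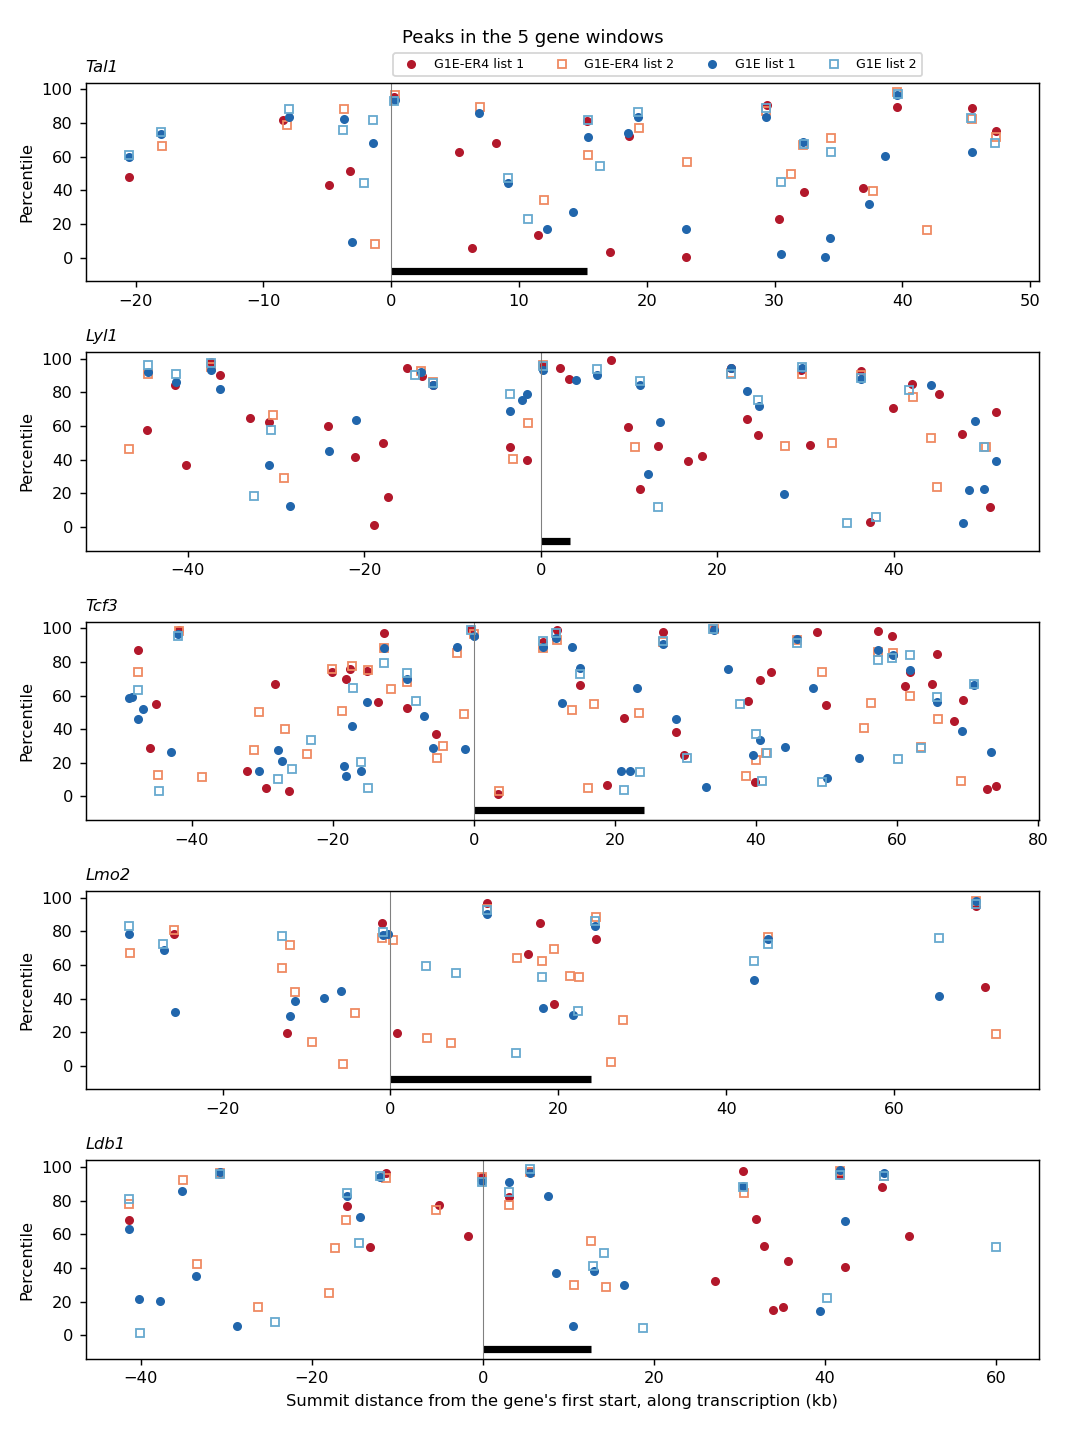
Percentile of every peak (y axis) against the distance of its summit from the first start of the gene, along the direction of transcription (x axis, kb), for the windows of Tal1, Lyl1, Tcf3, Lmo2 and Ldb1. Colours mark the lists and the black bar the gene body; high sites recur in all 4 lists, while low-ranking sites are often seen in a single list.

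Read over the genes, 3 of the 5 best promoter peaks (Tal1, Lyl1 and Lmo2) had both G1E-ER4 percentiles above both G1E percentiles, and 0 had them below. Among the 10167 genes with a promoter peak in all 4 lists, 12.6% were of the first kind and 13.9% of the second. The median difference over those genes was -0.88 points, the middle 50% of genes lay between -3.14 and 0.88, and the middle 90% between -12.4 and 10.6. The differences of Tal1, Lyl1, Tcf3 and Lmo2 lay above the first of these ranges, and all 5 members lay inside the second. Of the 8 groups of starts with a peak in all 4 lists, 4 had both G1E-ER4 values above. They were the 3 peaks just counted and the peak at the first Ldb1 start. The share of such groups over all genes was not computed, so this count has no background beside it. The mean difference over the 5 genes was 1.78 points.

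The numbers of peaks overlapped between the states. The 5 windows together held 134 and 124 peaks in the G1E-ER4 lists, against 143 and 106 in the G1E lists. Distal peaks, those over 1000 bp from every protein-coding start, numbered 109 and 100 in the G1E-ER4 lists, against 118 and 84 in the G1E lists. The difference in distal peaks was 3.5 (p = 1.0, exact permutation test, two-sided), and the lists of 1 state differed from each other by more than this. Over 10 Mb around each gene, the log2 ratio of mean peak numbers, G1E-ER4 over G1E, lay between -0.20 at Lmo2 and 0.13 at Tal1.

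Own-promoter peaks overlapped peaks of the other state at every member. All 20 own-promoter peaks of the G1E-ER4 lists overlapped a peak in both G1E lists by at least 1 bp (100%, Wilson 95% interval 83.9 to 100%), against 77.0% of all promoter peaks of those lists. All 18 own-promoter peaks of the G1E lists overlapped a peak in both G1E-ER4 lists (100%, interval 82.4 to 100%), against 75.6% of all promoter peaks. Among those counted are the G1E-ER4 peaks at the Tcf3 starts 2.6 kb downstream, where the G1E lists have no summit. They overlap wide G1E peaks whose summits lie at the first start. The peaks come from only 5 genes and repeat between lists, so the intervals cover counting error alone and are too narrow.

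Distal sites were shared less. A counterpart in both lists of the other state was found for 120 of 209 distal G1E-ER4 peaks (57.4%, interval 50.6 to 63.9%), against 36% of all distal peaks of those lists. For G1E it was found for 111 of 202 (55.0%, interval 48.1 to 61.7%), against 32.4%. The member windows are more densely covered than the genome, and the part of this in the shares was not tested. When each pair had to overlap by 50% of both peaks, the shares were 23.4% for G1E-ER4 and 19.3% for G1E, against 15.3 and 11.9% of all distal peaks. When summits had to lie within 100 bp of each other they were 25.8% for G1E-ER4 and 22.8% for G1E, against 19.7 and 16.4%. Own-promoter peaks then stood at 50.0% for G1E-ER4 and 61.1% for G1E with the 50% rule, against 46.1 and 41.2% of all promoter peaks. With the summit rule they stood at 70.0% for G1E-ER4 and 77.8% for G1E, against 51.9 and 48.3%.

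The distal share was not the same from gene to gene. Lyl1 had a counterpart for 73.5% of 49 distal G1E-ER4 peaks and 65.0% of 40 G1E peaks. Tal1 had one for 68.6% of 35 G1E-ER4 peaks and 59.0% of 39 G1E peaks. For Tcf3 the shares were 54.2% of 72 G1E-ER4 peaks and 60% of 70 G1E peaks. The Lmo2 window, the least covered of all, had 42.3% of 26 G1E-ER4 peaks and 36% of 25 G1E peaks. Ldb1 had 37% of 27 G1E-ER4 peaks and 39.3% of 28 G1E peaks.

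**Figure D3:**
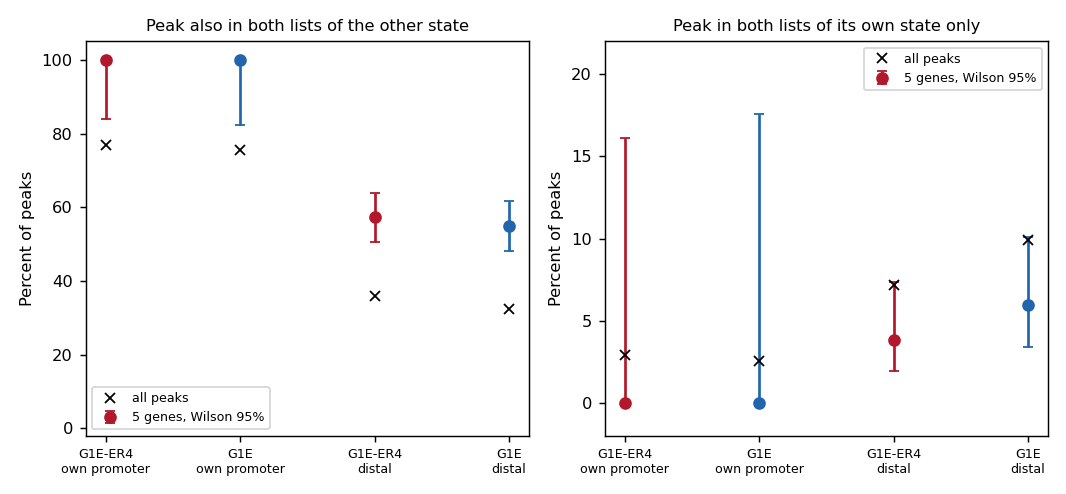
Percent of peaks of the 5 genes (points with Wilson 95% intervals) and of all peaks of the same lists (crosses) that have a counterpart in both lists of the other state (left) or that are limited to both lists of their own state (right), for own-promoter and distal peaks. Own-promoter peaks stand at 100% on the left in both states, and distal peaks at 57.4% for G1E-ER4 and 55.0% for G1E.

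Sites limited to 1 state were few. By the overlap rule, 8 of 209 distal G1E-ER4 peaks (3.83%) were present in both G1E-ER4 lists and in no G1E list, against 7.16% of all distal peaks. For G1E, 12 of 202 (5.94%) were limited to that state, against 9.89% of all distal peaks. Of the own-promoter peaks, 0 of 20 were limited to G1E-ER4 and 0 of 18 to G1E, against 2.94 and 2.53% of all promoter peaks. Leaving out 1 list raised these counts, since fewer lists then had to meet the rule: with 1 list left out, 8.5 to 23 peaks per list were limited to G1E-ER4 and 12.0 to 16 to G1E, against 4.0 and 6.0 with all lists. The G1E-ER4 count was 19 without G1E-ER4 list 1, 23 without G1E-ER4 list 2, 8.5 without G1E list 1 and 10.5 without G1E list 2. The G1E count was 16, 14.5, 12.0 and 13 without the same lists in turn. The shares over all peaks were not computed with a list left out, so these counts cannot be set against the genome.

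Among the sites limited to G1E-ER4, the Tcf3 site 20.1 kb upstream (chr10:79914748-79917293), whose composite motif is shown above, stood at 74.2 and 75.5. Its peak in list 1 was wide enough to reach a G1E peak beside it, so only the peak of list 2 passed the rule. The Ldb1 site by 5 kb upstream, in Pprc1 (chr19:46124515-46125432), stood at 77.3 and 74.4, with summits at 5.1 and 5.45 kb. The Lmo2 site 19.5 kb downstream, inside the gene (chr2:103817356-103818339), stood at 37.1 and 69.5. The remaining peaks stood at 59.5 beside Lyl1 and at 44.6 and 30.3 beside Tcf3.

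Among the sites limited to G1E, Lmo2 had the pair at 43.3 kb downstream (chr2:103841146-103841662), with 51.2 and 62.4, and at 65.3 kb downstream (chr2:103863171-103863720), with 41.3 and 75.8. Ldb1 had one 14.4 kb upstream (chr19:46133731-46134845), with 70.4 and 55.0, and a weak one in an exon of Nolc1 with 21.7 and 1.15. Tcf3 had one 70.9 kb downstream in Plk5 (chr10:79825186-79825698), with 66.3 and 66.7. Single low peaks beside Tcf3 and Lyl1, at 51.9 and 31.4 in G1E list 1, made up the rest. None of the peaks limited to either state reached the highest 20% of its list.

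Where a distal site was present in all 4 lists by overlap, the ranks moved by gene. Over all 5 genes the median difference, G1E-ER4 minus G1E, was 0.31 and -1.97 points when the peaks of the G1E-ER4 lists were taken as the starting set, and 1.32 and 1.35 with those of the G1E lists. Over all shared distal peaks of the genome it was -0.13 and 0.32 from the G1E-ER4 lists and 1.40 and 1.10 from the G1E lists. The members as a whole were thus close to the rest of the genome.

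Tcf3 and Tal1 stood on opposite sides of these medians. For Tcf3 the median was 7.84 and 7.93 from the G1E-ER4 lists and 9.48 and 7.47 from the G1E lists, over 14 to 22 peaks. For Tal1 it was -7.42 and -7.42 from the G1E-ER4 lists and -5.60 and -4.26 from the G1E lists, over 8 to 13 peaks. These peaks were matched by overlap of at least 1 bp, so a small peak can be set against a wide one. At the 4 distal Tal1 sites with a summit in all 4 lists the sign was mixed. Their differences were -5.59, 2.57, -2.91 and 12.5 points. The 2 genes were picked out for this contrast after their values were seen, and it is a description with no test.

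Counts of peaks whose states did not overlap follow. At Tcf3, 7 of 15 shared distal peaks of G1E-ER4 list 1 had both G1E-ER4 percentiles above both G1E percentiles, and 8 of 18 of G1E-ER4 list 2 did, against 20.2 and 20.7% of all shared distal peaks. From the G1E lists it was 9 of 22 and 6 of 14, against 23.2 and 23.7%. At the same gene 3 shared peaks were below from each list. That is 20.0 and 16.7% of those of the G1E-ER4 lists and 13.6 and 21.4% of those of the G1E lists. At Tal1 none was above from any list. Below were 2 of 10 and 2 of 10 from the G1E-ER4 lists, and 2 of 13 and 2 of 8 from the G1E lists. Over all shared distal peaks the shares below were 17.6 and 17.1% from the G1E-ER4 lists and 15.0 and 16% from the G1E lists. The counts below at Tcf3 and Tal1 were thus near the genome shares. From G1E-ER4 list 1, Lyl1 had 5 above and 7 below of 22, Lmo2 had 2 above and 0 below of 4, and Ldb1 had 0 above and 2 below of 5. Over all 5 genes 14 of 56 were above and 14 below from that list. Peaks of 1 window lie side by side and are not independent of each other.

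**Figure D4:**
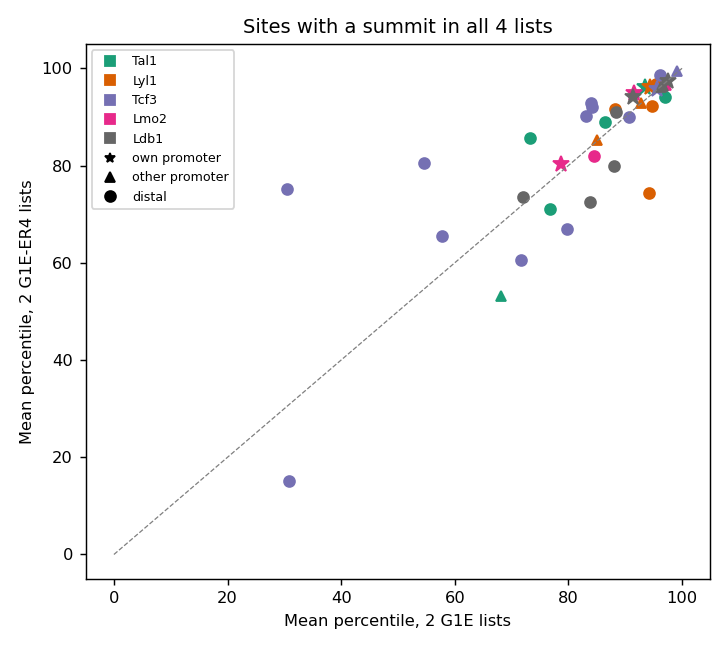
Mean percentile over the 2 G1E-ER4 lists (y axis) against the mean over the 2 G1E lists (x axis) for the 39 sites with a summit in all 4 lists, 24 of them distal and 7 own promoters; colours mark the gene, symbols the class, and the dashed line equal values. Promoters crowd at the top right, and the points farthest above the line are distal Tcf3 sites.

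Motifs at the summits were set beside all peaks of the same class. Of the distal member peaks, 16.3% in G1E-ER4 and 14.4% in G1E held a GATA motif within the 200 bp around the summit, against 20.6 and 19.9% of all distal peaks. An E-box was present in 27.3% for G1E-ER4 and 28.7% for G1E, against 29.8 and 30.3%. The composite motif ends in GATAA with any base before it, so it often overlaps the GATA motif but can occur without it. It was present in 5.26% for G1E-ER4 and 5.94% for G1E, against 3.45 and 3.77%. The ETS motif was present in 3.83% for G1E-ER4 and 7.43% for G1E, against 3.28 and 3.16%. These shares rest on few peaks, 11 and 12 of them for the composite motif, and many sites enter once per list.

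Own-promoter peaks of the members held a GATA motif in 8 of 20 cases in G1E-ER4 (40%) and in 7 of 18 in G1E (38.9%), against 7.82 and 6.83% of all promoter peaks. The matches come from few places counted once per list. They were in all promoter peaks of Tal1 and Lyl1, in 3 of 6 Tcf3 peaks of G1E-ER4 and 3 of 5 of G1E, in 1 of 6 Lmo2 peaks of G1E-ER4 and 0 of 5 of G1E, and in none of the Ldb1 peaks. Among distal peaks, Lmo2 had a GATA motif in 34.6% of 26 in G1E-ER4 and 28.0% of 25 in G1E, while Tcf3 had one in 12.5% of 72 in G1E-ER4 and 8.57% of 70 in G1E. Of the 24 distal sites with a summit in all 4 lists, the Tal1 site at 39.6 kb and the Lyl1 site at 29.6 kb were the only ones with a composite motif.

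For the partners of the complex a wider rule was used than for the members, since a peak had only to reach within 1000 bp of a start, with its summit anywhere. By it 16 of 16 partner genes had a peak in all 4 lists, against 51.5% of 22232 protein-coding genes. By the summit rule 14 of 16 had one, against 45.7%, with Gata2 in 3 lists and Ssbp4 in 1. The partners were Gata1 and Gata2, the cofactors Cbfa2t3 and Cbfa2t2, the Ldb1-binding proteins Ssbp2, Ssbp3 and Ssbp4, the E proteins Tcf4 and Tcf12, the transcription factors Runx1 and Gfi1b, and the repressor subunits Kdm1a, Rcor1, Hdac1, Hdac2 and Sin3a. By the wider rule, the promoter of Gata1 itself stood at 75 and 89.1 in the G1E-ER4 lists and at 81.5 and 87.8 in the G1E lists. By the summit rule the first of these values was 44.6. That of Gata2, which Gata1 is known to replace and repress, stood at 97.0 and 98.4 in the G1E-ER4 lists and at 97.3 and 98.0 in the G1E lists. The states overlapped at both.

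Among the partners, Tcf4 alone had both G1E-ER4 values above, with 91.8 and 94.3 in the G1E-ER4 lists against 90.5 and 91.4 in the G1E lists. Rcor1 alone had both below, with 97.6 and 98.3 in the G1E-ER4 lists against 98.5 and 99.1 in the G1E lists. In the genome 15.6% of the 11445 genes with such a peak in all 4 lists were above and 13.2% below, so 1 of 16 in each direction is near or under that level. The median difference of the 16 was -0.21 points, against -0.66 over those genes.

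Peaks limited to 1 state, promoter and distal together, made up 31 of 780 peaks within 50 kb of the partners in G1E-ER4 (3.97%), against 6.54% of all G1E-ER4 peaks. In G1E they made up 90 of 952 (9.45%), against 8.82% of all G1E peaks. Rcor1 had 0 and 0 of them in the G1E-ER4 lists, against 13 and 8 in the G1E lists. Over the 10 Mb around Rcor1 on chromosome 12, the log2 ratio of mean peak numbers, G1E-ER4 over G1E, was -0.94. The part of this regional difference in the count was not tested.

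Of 5 paralogs of the members, 2 had a promoter peak in all 4 lists. Ldb2 and Lmo3 had no promoter peak in any list, and Tal2 had one in G1E-ER4 list 2 alone, at 4.93. Lmo1 stood at 80.7 and 85.1 in the G1E-ER4 lists and at 81.9 and 76.6 in the G1E lists. Lmo4 stood at 93.2 and 92.6 in the G1E-ER4 lists, against 97.5 and 99.1 in the G1E lists, and had both G1E-ER4 values below.

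The Id genes, whose products bind E proteins such as those of Tcf3 and keep them off DNA, gave the widest gaps between the states in the lists of related genes. Id2 stood at 69.0 and 60.8 in the G1E-ER4 lists, against 47.9 and 27.1 in the G1E lists, a difference of 27.4 points. Id3 stood at 91.8 and 84.9 in the G1E-ER4 lists, against 68.3 and 64.7 in the G1E lists, a difference of 21.8 points. Both lay beyond the 5 to 95% range of all such genes, -11.7 to 19.2. Over the 10 Mb around the gene, the log2 ratio of mean peak numbers, G1E-ER4 over G1E, was 0.26 for Id2 and 0.01 for Id3. The part of the region in these gaps was not tested. Id1 stood at 97.3 and 92.6 in the G1E-ER4 lists and at 93.7 and 96.4 in the G1E lists, where the states overlapped. By the summit rule Id1 had no peak in G1E-ER4 list 2 and Id3 none in G1E list 1, while Id2 kept its 4 values. With 2 lists per state none of these differences can pass a threshold.

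**Figure D5:**
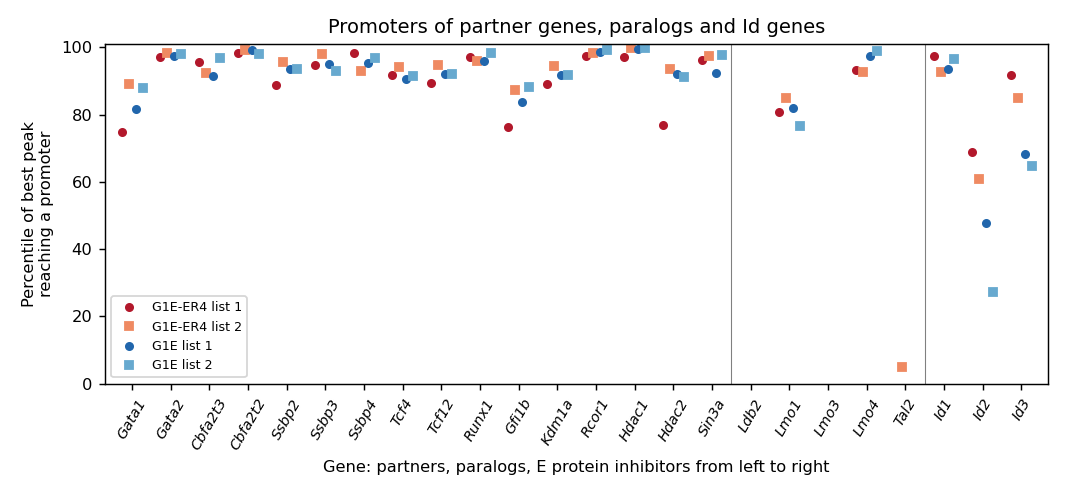
Percentile of the best peak reaching a promoter (y axis, 0 to 100) for 16 partner genes, 5 paralogs and the 3 Id genes (x axis), 1 point per list with the G1E-ER4 lists left of the G1E lists. Every partner has 4 points, Ldb2 and Lmo3 have none, and Id2 and Id3 have both G1E-ER4 points above both G1E points.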

How the data were processed

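The values are DNase-seq peak lists on mm9. Per the series design text, reads cut from DNase I ends were aligned with Bowtie, keeping the best place of reads with several matches, and peaks were called for each replicate from F-seq density by a gamma fit; for versions and read numbers the sources used here give nothing. The deposited value of a peak is a signal, the authors' F-seq density, with no stated scaling between lists. It was used only as a percentile within its list.

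From these lists, peaks were placed by summit on the GENCODE vM1 protein-coding annotation (NCBIM37, the assembly behind mm9). Own promoters lie within 1000 bp of a start of the gene, distal peaks over 1000 bp from every start. Summits within 250 bp were linked into 273 sites; where a list has no summit at a site, the percentile of the peak covering it is given as such. Distances run from the first start, along transcription. Motifs were searched on both strands with Python 3.11.15, pandas 2.3.3 and numpy 2.4.6, and intervals and permutation tests used scipy 1.17.1. The overlap rules were run on simulated peaks set well apart, which does not check wide or crowded peaks like those of these windows.

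Named distal sites were the 3 with the highest mean percentile per gene and state, every site limited to 1 state, and the Tal1 sites within 2 kb of the 19 and 40 kb elements. Sites at Tcf3 9.49 and 15.1 kb upstream, and the contrast of Tcf3 with Tal1, were chosen after their values were seen. The members and all lists were chosen with earlier results of these data known. One erythroid marker gene of these lists is not reported here.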

Additional observations from a re-analysis of the deposited data

How the results depend on the processing

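The promoter differences were not put to a test of stability: the other settings kept the same best peaks, and for Tal1, Lyl1 and Lmo2, whose states do not overlap, leaving out a list cannot turn the sign. Without 1 list each, the mean ran from 0.76 to 2.79 points, Tal1 from 1.79 to 3.39, Lyl1 from 0.67 to 3.12, Lmo2 from 1.91 to 5.05, Tcf3 from -0.60 to 3.10 and Ldb1 from -1.45 to 0.81.

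Peak numbers had no stable sign. Without 1 list each, the difference ran from -14 to 23 over all peaks, -13.5 to 20.5 over distal peaks, -4.5 to 0.5 at Tal1, -5.5 to 13.5 at Lyl1, -5.5 to 8.5 at Tcf3, -5.0 to 8.0 at Lmo2 and -3.0 to 2.0 at Ldb1. With 100 kb flanks Tcf3 gave -1.0, Lmo2 -2.0 and Ldb1 2.5, and with 20 kb Tcf3 gave -0.5 and Ldb1 0.5. In the highest 20000 peaks per list all peaks gave -5.5, distal peaks -5.5 and Lyl1 -2.5; in the highest 50% Ldb1 gave 2.0. The cause was not tested.

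Shares with a counterpart moved with the overlap rule. With 50% reciprocal overlap, own promoters were at 50.0% for G1E-ER4 and 61.1% for G1E, and distal peaks at 23.4 and 19.3%. With summits within 100 bp they were at 70.0 and 77.8%, and at 25.8 and 22.8%. With promoters reaching 2500 bp, own promoters were at 96.8 and 93.1% and distal G1E-ER4 peaks at 53.3%; with 500 bp the last share was 58.8%, with 100 kb flanks 55.4%. In the highest 20000 peaks G1E-ER4 own promoters were at 93.3% and distal peaks at 75.6%, and in the highest 50% distal G1E peaks were at 63.4%. Without 1 list each, distal shares ran from 57.0 to 68.9% for G1E-ER4 and from 54.2 to 72.8% for G1E, and own promoters stayed at 100%.

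Peaks limited to 1 state, per list, were 9.5 for G1E-ER4 with 100 kb flanks, 7.5 with reciprocal overlap, 0 in the highest 20000 and 2.0 in the highest 50%; for G1E they were 2.5 with 20 kb flanks, 14.5 by summits and 3.0 in the highest 20000. Without 1 list each they ran from 8.5 to 23 for G1E-ER4 and from 12.0 to 16 for G1E. For these settings the shares of limited peaks over all peaks were not computed. The median difference of shared distal peaks was 1.94 with 100 kb flanks, -2.88 with 20 kb and 2.50 in the highest 20000, and -2.33 to 2.61 without 1 list each. No paired analysis was possible because each state is 1 sample and the groups share fewer than 2 replicate numbers. Read depth, which would set the precision of a rank, is unknown.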

Other observations

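Some promoters of neighbouring genes inside the windows ranked much alike in the states, and others did not. Mbd3, a chromatin repressor subunit downstream of Tcf3, had a summit at 99.7 and 99.3 in the G1E-ER4 lists and at 98.7 and 99.6 in the G1E lists. Fbxo3, beyond Lmo2, had 94.8 and 98.3 in the G1E-ER4 lists, against 97.9 and 96.3 in the G1E lists. Nolc1, upstream of Ldb1, had 95.8 and 96.7 in the G1E-ER4 lists, against 96.9 and 95.6 in the G1E lists. The Pdzk1ip1 promoter beside Tal1 ranked lower and spread more, with 39.2 and 67.2 in the G1E-ER4 lists, against 68.7 and 67.5 in the G1E lists. Trmt1, beside Lyl1, had a promoter site with 84.7 and 85.9 in the G1E-ER4 lists, against 84.5 and 85.4 in the G1E lists. At another Trmt1 promoter site, 3.53 kb upstream of Lyl1, covering peaks stood at 47.6 and 40.7 in the G1E-ER4 lists, against 68.9 and 79.0 in the G1E lists. Of 29 such neighbouring promoter peaks in each state, 27 had a counterpart in both lists of the other state (93.1%). Over all promoter peaks the share was 77.0% for G1E-ER4 and 75.6% for G1E.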
